A study of Mus musculus with 27 samples.

Results

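Heat shock proteins are molecular chaperones, proteins that bind unfolded or damaged proteins and help them to refold, to assemble or to be degraded. The cytosolic HSP70 and HSP90 proteins work with J-domain and nucleotide-exchange partners, small heat shock proteins hold unfolded clients without using ATP, and the HSP60 and HSP10 rings fold proteins in the mitochondrial matrix. Some of the genes are constitutive and others are switched on by heat shock factor 1 (HSF1), which binds arrays of inverted GAA units (heat shock elements) in their promoters. Ischemia of the kidney depletes ATP and unfolds proteins in the tubular epithelium, and the inducible chaperones are long-known markers of that stress.

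The 10 genes described here are Hspa1a, Hspa1b, Hspa8, Hsph1, Dnajb1, Hspb1, Hsp90aa1, Hsp90ab1, Hspd1 and Hspe1, chosen by symbol, and all 10 were found among the 19392 genes of the deposited table. The study clamped the left renal pedicle of wild-type C57BL/6 mice for 0, 16, 18, 20, 22, 24, 26, 28 or 30 min at 37°C, and kidneys were taken 24 h later for RNA-Seq, with 3 kidneys at each of the 9 ischemia times and 27 in all. Per the labels the right kidney was removed in every group, including the 0 min (sham) group, so each left kidney was also the only kidney of its mouse. The age of the mice is not given in the sources used here. Only 1 reperfusion time was sampled, so the values describe the mRNA that was present 24 h after clamping and not the first hours.

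Levels are FPKM, a level scaled to transcript length and library size, which allows genes to be compared with each other per length. A difference is a log2 fold change of FPKM + 1 after quantile normalization, with its standard error (SE) from limma's moderated test over all 27 kidneys. A gene was called (a DEG) when the log2 fold change was above 1 or below -1 and the Benjamini-Hochberg adjusted p over 18188 tested genes was under 0.05. All 10 genes passed the filter on low values.

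The kidneys had FPKM sums between 512453 and 554036 and 16498 to 16904 genes above 0. FPKM is already scaled to library size, so like sums do not show that read depth was even. Proximal tubule markers defined the tissue as kidney at every time. Markers of tubular injury separated kidneys within 2 groups: replicate 3 of the 16 min group held 35.08 FPKM of Havcr1 (KIM-1) and 31.43 FPKM of Lcn2 (NGAL), against 331.86 and 574.47 FPKM of Havcr1 in replicates 1 and 2. Replicate 3 of the 0 min group held 22.02 FPKM of Havcr1 and 63.62 FPKM of Lcn2, above 2.81 and 2.49 FPKM of Havcr1 in the other two sham kidneys.

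The promoters of the most responsive genes are shown first because the heat shock element is the sequence by which HSF1 recognises them. RefSeq promoter windows of build GRCm38.p6, with 250 bases before and 50 after the start, were matched for 7 of the 10 genes and not for Hspa8, Hsp90aa1 and Hsp90ab1. Capitals mark every match to GAANNTTC or TTCNNGAA, a pair of inverted units that reads the same on both strands. The 250 bases upstream of the Hspa1a, Hspa1b and Hspb1 starts, 5′ to 3′ on the strand of the gene, were as follows.
Hspa1a, minus strand, chr17:34972157-34972406: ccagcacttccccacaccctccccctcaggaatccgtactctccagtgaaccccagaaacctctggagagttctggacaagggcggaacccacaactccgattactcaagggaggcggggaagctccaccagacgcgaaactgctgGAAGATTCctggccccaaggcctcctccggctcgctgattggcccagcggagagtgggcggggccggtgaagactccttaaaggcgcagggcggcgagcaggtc
Hspa1b, minus strand, chr17:34959239-34959488: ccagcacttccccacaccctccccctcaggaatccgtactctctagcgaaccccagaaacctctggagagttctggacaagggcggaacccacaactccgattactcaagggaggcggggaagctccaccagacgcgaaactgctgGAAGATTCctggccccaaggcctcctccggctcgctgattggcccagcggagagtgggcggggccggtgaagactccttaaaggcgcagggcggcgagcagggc
Hspb1, plus strand, chr5:135887669-135887918: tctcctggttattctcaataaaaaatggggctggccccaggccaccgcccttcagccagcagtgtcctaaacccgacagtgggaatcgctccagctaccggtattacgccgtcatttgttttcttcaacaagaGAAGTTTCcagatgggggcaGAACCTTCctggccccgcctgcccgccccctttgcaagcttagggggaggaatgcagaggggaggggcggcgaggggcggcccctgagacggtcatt

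The Hspa1a and Hspa1b upstream sequences were near copies: 247 of 250 bases (98.8%) were the same. Counted from 1 at the 5′ end of the printed stretch, with the Hspa1a base first, the 3 differences were C44T, T47C and T249G. None of them lay in the pair of units, which began 104 bases before the start in both genes. Hspb1 held 2 pairs, which began 117 and 97 bases before its start.

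Hspd1 and Hspe1, the mitochondrial HSP60 and HSP10, lie head to head on chromosome 1, and 1 of the 2 windows of Hspd1 overlaps most of that of Hspe1, while the other held no match. A run of units was found there, shown with 5 bases on each side on the strand of Hspe1 and beginning 94 bases before its start.
Hspe1, plus strand, chr1:55088054-55088081: gtccgTTCTAGAACCTTCCGGAAggccc

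This run held the longer form, a pair followed after NN by 1 more unit, GAA after TTC or TTC after GAA, so that each longer match contains and overlaps 2 pairs. Hsph1 also held the longer form, after its start. The longer form was found in at least 1 window of 3 of the 7 genes, against 0.662% of all 27025 genes with a window in the RefSeq table. Hspd1 and Hspe1 are counted here for the same run in their overlapping windows. The pair was found in 6 of the 7 genes, against 17.0% of all genes with a window, and Dnajb1 held no match in its windows. The near copies Hspa1a and Hspa1b are counted separately, so the matches are not all independent. These matches are letters in a window, and binding was not measured.

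In the annotation of the same build (GENCODE M21, GRCm38), Hspa1a is at chr17:34969190-34972156 and Hspa1b at chr17:34956436-34959238, both on the minus strand and with 1 exon each, separated by 9951 bases. Hspb1 is at chr5:135887919-135889563 on the plus strand. Of all 100-base stretches of the Hspa1a transcript, 47.1% also occur in Hspa1b and 48.6% in Hspa1b or Hspa1l, and 49.9% of those of Hspa1b occur in Hspa1a. Reads from these stretches fit more than 1 gene, and how they were divided is not given in the sources used here, so the sum of the FPKM of both genes is given beside each main result. No 100-base stretch of the other 8 genes' transcripts was shared with another gene of the table.

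At sham level the family covered more than 2 orders of magnitude per length. Hspa8, the constitutive cytosolic HSC70, was the most abundant with a mean of 1390.0 FPKM, followed by Hsp90ab1, the constitutive HSP90, with 527.9 FPKM. Hspe1 (209.5), Hspd1 (208.5) and Hsp90aa1 (179.7 FPKM) formed the next level, and Hspe1 and Hspd1 overlapped each other, as did Hspd1 and Hsp90aa1. Hsph1, an HSP110 that recharges HSP70 with ATP, followed at 41.3 FPKM. The lowest were Hspb1 (17.0), Hspa1b (13.8), Dnajb1 (13.3) and Hspa1a (8.90 FPKM), whose sham ranges overlapped from each to the next.

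At 30 min the order of the low genes was different. Hspb1 had risen to a mean of 176.0 FPKM, into the range of Hspd1 and Hspe1, and Hspa1b (57.2) and Hspa1a (49.5) overlapped the range of each other and lay above or across that of Hsph1 (37.1 FPKM). Dnajb1, at 16.6 FPKM, was then the lowest of the 10. The 10 genes together made up 0.426 to 0.534% of the summed FPKM in sham kidneys and 0.449 to 0.546% at 30 min. Within that sum, Hspb1, Hspa1a and Hspa1b together held 1.25 to 1.84% at 0 min, 4.14 to 5.07% at 28 min and 8.50 to 12.1% at 30 min. In whole kidney RNA, fewer cells of a type and less RNA per cell cannot be told apart, here and for every result below. The share of Hspa8 was 48.0 to 59.5% in sham kidneys and 33.0 to 39.5% at 30 min, ranges that did not overlap.

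**Figure D1:**
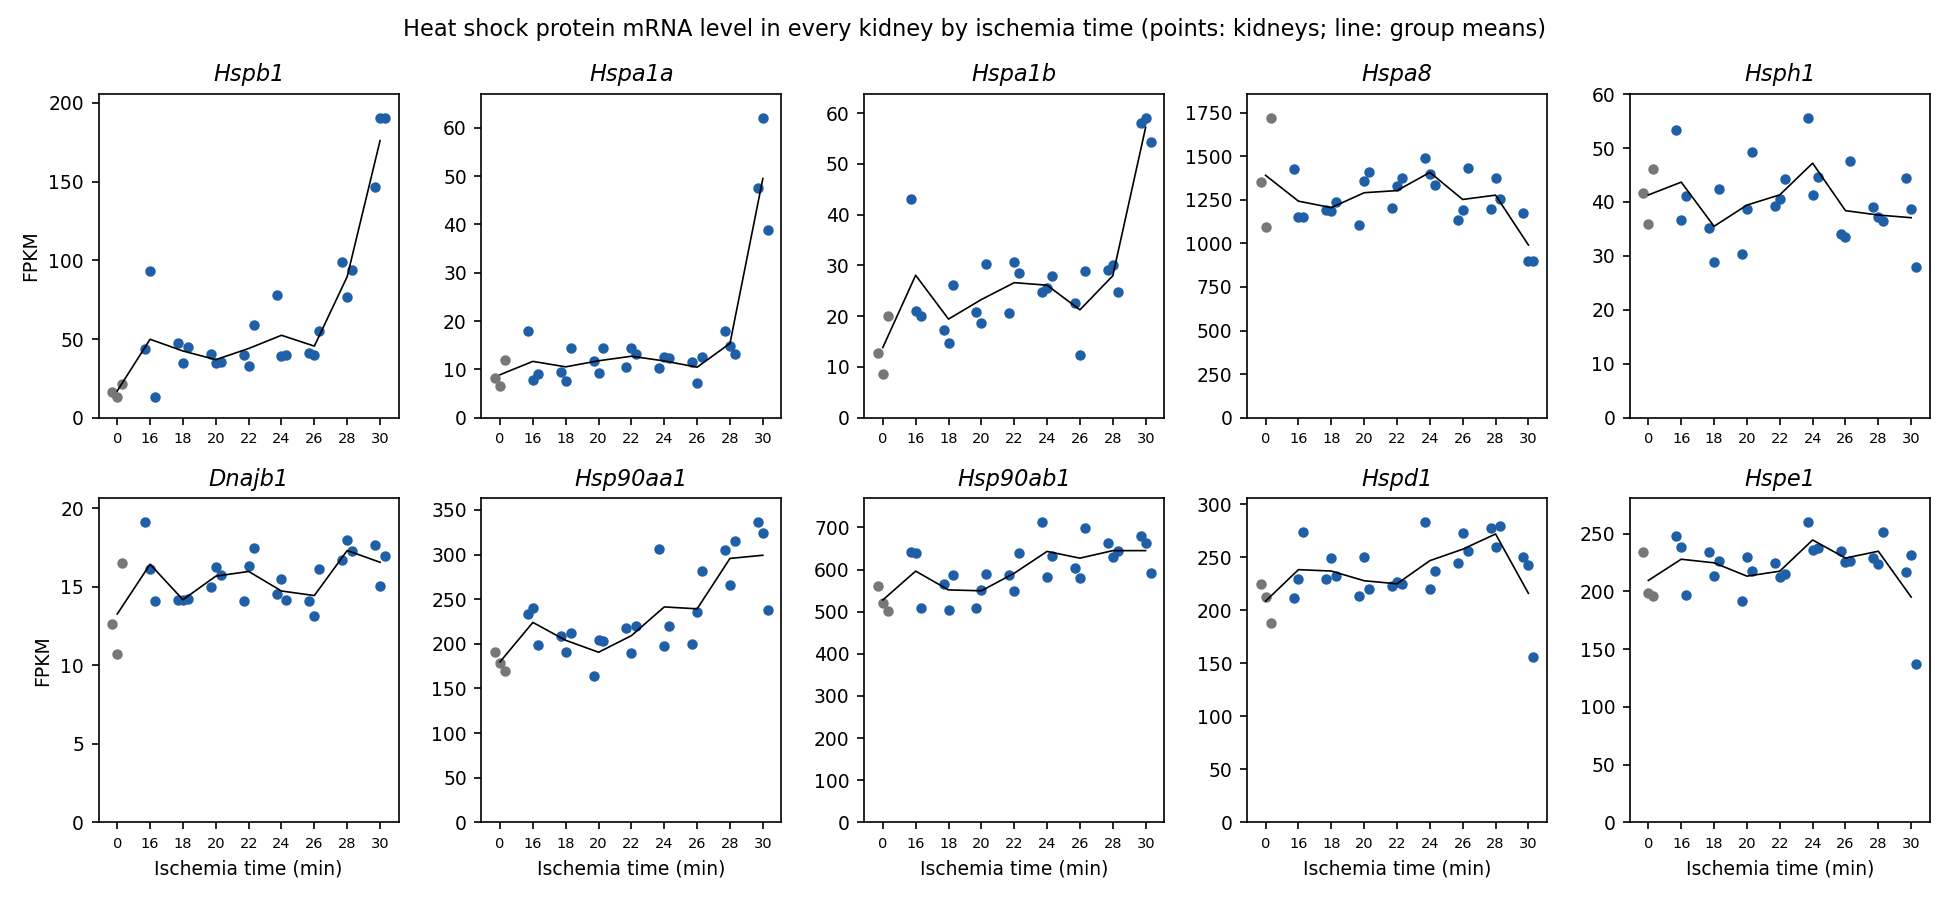
Level of each of the 10 heat shock protein mRNAs (FPKM, linear axis from 0) in every kidney at each ischemia time (min, drawn at equal steps although 0 and 16 min are farther apart), with grey points for 0 min, blue points for ischemia, and a line through the means of the 3 kidneys. Hspb1, Hspa1a and Hspa1b are highest at 30 min, with at least 6.82-fold between the lowest and the highest of the 27 kidneys, against at most 2.04-fold in the other 7 panels, of which Hsp90aa1 is above the sham range at 28 and 30 min and Hspa8 has its lowest kidneys at 30 min.

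Of the 10 genes, 3 were called higher at 30 min: Hspb1, Hspa1a and Hspa1b. In ascending order of ischemia time from 16 min, limma called 0, 1, 0, 1, 1, 1, 1 and 3 of the 10 higher, while 1.28, 1.97, 1.55, 2.09, 1.97, 2.16, 4.27 and 5.14% of all tested genes were called higher. The gene called from 18 to 28 min was Hspb1 each time. At 16 and 20 min, with 0 called, limma gave 3 and 2 of the 10 an unadjusted p under 0.05. None of the 10 was called lower at any time, where 0.979, 1.09, 0.962, 1.2, 1.15, 1.61, 4.21 and 5.59% of all genes were, in the same order, and among the 10 the numbers with an unadjusted p under 0.05 in either direction were 3, 2, 2, 2, 3, 3, 6 and 5.

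Without the fold limit more of the 10 genes, and more of all genes, had a limma adjusted p under 0.05. In the same order of times 0, 1, 0, 2, 2, 3, 4 and 4 of the 10 were higher, beside 9.43, 12.6, 10.7, 13.4, 13.6, 14.9, 24.5 and 26.9% of all genes. Hspa8 was the 1 member that was lower by this rule at 30 min, where 25.4% of all genes were. All 3 kidneys lay above the highest sham kidney in FPKM for 1, 2, 1, 2, 5, 4, 7 and 5 of the 10 genes in turn, beside 20.6, 29, 26.4, 29.9, 29.4, 29.1, 35.5 and 33.3% of all genes. The median log2 fold change of the 10 at 30 min was 0.19, against 0.0008 for all tested genes.

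**Figure D2:**
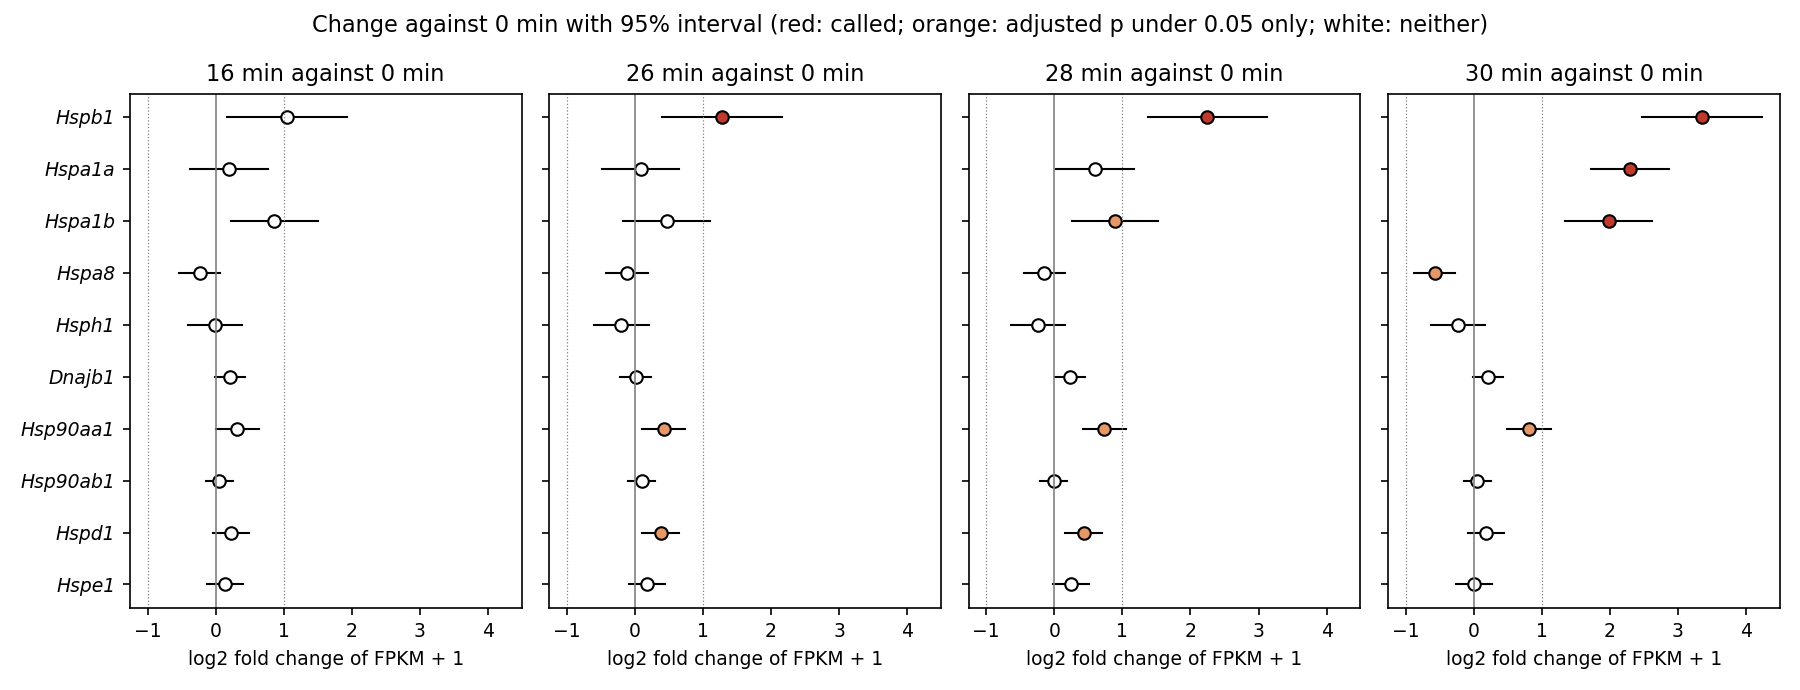
Log2 fold change of FPKM + 1 against 0 min (points) with the 95% interval from limma (bars) for the 10 genes at 16, 26, 28 and 30 min, with dotted lines at the fold limit of 1 and -1. Red points are called genes, orange points have an adjusted p under 0.05 only, and white points have neither: Hspb1 moves from 1.05 at 16 min to 3.36 at 30 min, and Hspa1a and Hspa1b pass the fold limit at 30 min only.

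Hspb1 encodes HSP27, a small heat shock protein that holds unfolded clients and caps actin filaments. It was the member with the largest rise and the one called at most ischemia times. In sham kidneys it was at 16.19, 13.40 and 21.43 FPKM. At 16 min the values were 43.39, 92.97 and 13.20 FPKM, so that replicate 3, the kidney with low injury markers, lay below the sham range while the other two lay above it. Of the 18 kidneys clamped for 16 to 26 min, 17 lay above the highest sham kidney and that kidney was the exception. Across these 18 kidneys the lowest, median and highest levels were 13.2, 40.2 and 92.97 FPKM.

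Hspb1 then rose further with the longest clamping. It was at 98.70, 76.59 and 93.71 FPKM at 28 min and at 146.88, 190.73 and 190.50 FPKM at 30 min. Neither of these groups overlapped the sham kidneys or each other. The log2 fold change against 0 min was 2.25 (SE 0.42, limma adjusted p = 0.000173) at 28 min and 3.36 (SE 0.42, adjusted p = 1.28e-06) at 30 min, which is 4.75-fold and 10.2-fold on the FPKM + 1 scale.

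The calls of Hspb1 at shorter times were closer to the threshold. The log2 fold change was 1.05 for 16 min (limma adjusted p = 0.0863) and 0.99 for 20 min (adjusted p = 0.0956), neither of them called. It was 1.16 for 18 min (adjusted p = 0.0454), 1.20 for 22 min (adjusted p = 0.0374), 1.40 for 24 min (adjusted p = 0.0166) and 1.28 for 26 min (adjusted p = 0.0260), each with an SE of 0.42. At 18 min the call was lost whichever of the 6 kidneys was left out. Leaving out replicate 3 at 22 min, replicate 1 at 24 min, replicate 3 at 26 min, sham replicate 2 (at 22, 24 and 26 min) or sham replicate 1 (at 22 and 26 min) also ended the call at those times. At 16 min the log2 fold change was 1.76 (adjusted p = 0.000398) without replicate 3 and 0.42 without replicate 2. At 28 and 30 min the value stayed between 2.12 and 2.39 and between 3.22 and 3.51 when any 1 kidney was left out.

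Hspa1a and Hspa1b encode the same stress-inducible HSP70, and both stood apart at 30 min. Hspa1a was at 8.27, 6.53 and 11.91 FPKM in sham kidneys, at 17.98, 14.88 and 13.27 FPKM at 28 min, and at 47.45, 62.12 and 38.90 FPKM at 30 min. Hspa1b was at 12.83, 8.67 and 19.99 FPKM in sham kidneys, at 29.11, 30.08 and 24.69 FPKM at 28 min, and at 58.02, 59.14 and 54.40 FPKM at 30 min. For both genes every kidney at 30 min was higher than all 24 others, and every kidney at 28 min was above the sham range.

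Against 0 min, Hspa1a rose by a log2 fold change of 2.29 (SE 0.27, limma adjusted p = 6.83e-07) and Hspa1b by 1.98 (SE 0.31, adjusted p = 1.56e-05) at 30 min, or 4.90-fold and 3.96-fold. The summed FPKM of both genes, which depends in part on the same division of reads, rose by 2.22 (adjusted p = 2.86e-06). At 28 min Hspa1b differed by 0.89 (SE 0.31, adjusted p = 0.0204), which did not reach the fold limit, and Hspa1a by 0.60 (SE 0.27, adjusted p = 0.0779). Without sham replicate 3 Hspa1b was called at 28 min, with a log2 fold change of 1.16, and Hspa1a was at 0.80 (limma adjusted p = 0.0341). The limma adjusted p of Hspa1b was 0.128 without sham replicate 2 and 0.0561 and 0.0588 without replicate 1 and replicate 2 of the 28 min group.

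Before 28 min every kidney lay below the 30 min range of both genes. The group means of Hspa1b from 16 to 26 min were 19.4 to 28.1 FPKM, which reached its mean of 28.0 FPKM at 28 min. Hspa1a ranged from 7.28 to 17.97 FPKM over the 18 kidneys from 16 to 26 min, and 8 of these exceeded the highest sham kidney. Hspa1b ranged from 12.29 to 43.17 FPKM, and 13 of 18 exceeded it. The highest value of both genes in this span was in replicate 1 of the 16 min group, with 17.97 FPKM of Hspa1a and 43.17 FPKM of Hspa1b. Hspa1b passed the adjusted p without the fold limit at 22 min (0.85, SE 0.31, limma adjusted p = 0.0420) and 24 min (0.83, SE 0.31, adjusted p = 0.0472). At 16 min its log2 fold change was 0.86 (adjusted p = 0.0533), and it was called when replicate 3 of that group (1.03) or sham replicate 3 (1.13) was left out.

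The step from 28 to 30 min was the only one between neighbouring ischemia times at which any of the 10 genes was called. Hspa1a rose by a log2 fold change of 1.69 (SE 0.27, limma adjusted p = 0.000854) and Hspa1b by 1.09 (SE 0.31, adjusted p = 0.0229), so 2 of 10 genes were called higher and 0 lower, against 0.401% and 0.649% of all tested genes. Their sum rose by 1.37 (adjusted p = 0.00541). The call of Hspa1b was lost when replicate 2 or 3 of the 28 min group or replicate 2 or 3 of the 30 min group was left out, and that of Hspa1a was kept each time. A fit of only the 6 kidneys of these groups gave both an adjusted p of 0.0522. Hspb1 differed by 1.11 in this step (SE 0.42, adjusted p = 0.0894) and Hspa8 by -0.43 (SE 0.15, adjusted p = 0.0592), in both cases with groups that did not overlap. By FPKM alone 3 of the 10 genes were wholly higher and 2 wholly lower at 30 than at 28 min, beside 11.9% and 16.4% of all genes.

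Between 26 and 28 min, where 0.44% of all genes were called higher and 1.06% lower, 0 of the 10 were called by limma, with 2 at an unadjusted p under 0.05. These were Hspb1 (0.97, SE 0.42, adjusted p = 0.120) and Dnajb1 (0.22, SE 0.11, adjusted p = 0.160). In the 5 neighbouring steps from 16 to 26 min, 0 of the 10 genes and 0% of all genes were called by limma, and the 10 genes gave 1 unadjusted p under 0.05 in all (Hsp90ab1, 18 against 16 min). The slope per min over 16 to 26 min passed for 0 of the 10 genes by limma, with 0 at an unadjusted p under 0.05, and for 0.0055% of all genes in each direction. The slope of Hspb1 was 0.03 per min on the log2 scale, with a 95% interval from -0.04 to 0.10.

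The other genes of the cytosolic HSP70 machinery, Hspa8, Dnajb1 and Hsph1, were not called by limma at any time. Hspa8 was at 1353.50, 1095.19 and 1721.43 FPKM in sham kidneys, at 1196.76, 1377.19 and 1255.28 FPKM at 28 min, and at 1171.48, 900.71 and 899.14 FPKM at 30 min. The 30 min group was the lowest of the 9, 2 of its 3 kidneys lay below the sham range, and the groups overlapped through replicate 1. The log2 fold change at 30 min was -0.58 (SE 0.15, limma adjusted p = 0.00250), below the fold limit in size, and it stayed between -0.75 and -0.41 when any 1 kidney was left out. None of the 18 kidneys from 16 to 26 min lay outside the sham range of Hspa8, which was itself wide.

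Dnajb1, the J-domain partner HSP40 that delivers clients to HSP70, was at 12.62, 10.70 and 16.50 FPKM at 0 min, at 16.69, 17.98 and 17.29 FPKM at 28 min and at 17.64, 15.07 and 17.00 FPKM at 30 min. The 28 min kidneys all lay above the sham range, with log2 fold changes of 0.23 (SE 0.11, limma adjusted p = 0.0799) at 28 min and 0.21 (SE 0.11, adjusted p = 0.108) at 30 min. Both values rested on the sham kidneys: without sham replicate 3 Dnajb1 was at 0.37 (adjusted p = 0.00430) and 0.35 (adjusted p = 0.00591), and without sham replicate 2 at 0.11 and 0.087. Hsph1 was at 41.73, 35.98 and 46.20 FPKM at 0 min and at 44.54, 38.72 and 28.00 FPKM at 30 min, with overlapping groups at every time. Its log2 fold change at 30 min was -0.23 (SE 0.19, adjusted p = 0.342), with a 95% interval from -0.63 to 0.17, and it ranged from -0.38 to -0.043 when 1 kidney was left out.

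Neither of the cytosolic HSP90 genes was called at any time, and Hsp90aa1, the inducible one, passed the adjusted p without the fold limit from 26 to 30 min. Hsp90aa1, which encodes HSP90-alpha, was at 190.51, 178.88 and 169.85 FPKM at 0 min, at 305.59, 265.97 and 315.26 FPKM at 28 min, and at 336.30, 323.71 and 237.52 FPKM at 30 min. Both late groups lay above the sham range, with replicate 3 the lowest at 30 min. The log2 fold change was 0.42 (SE 0.15, limma adjusted p = 0.0422) at 26 min, 0.74 (SE 0.15, adjusted p = 0.000458) at 28 min and 0.81 (SE 0.15, adjusted p = 0.000147) at 30 min, each under the fold limit. At 26 min the limma adjusted p was 0.0550 without quantile normalization, 0.0523 with a replicate block, 0.114 without sham replicate 3 and 0.221 without replicate 3 of the 26 min group.

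Hsp90ab1, which encodes HSP90-beta, was at 562.19, 520.66 and 500.79 FPKM at 0 min, at 662.20, 629.63 and 643.25 FPKM at 28 min and at 679.82, 664.01 and 591.38 FPKM at 30 min. As deposited, all 6 late kidneys were above the sham range. Quantile normalization gives genes of equal rank in different kidneys the same value. After it, the log2 fold change was -0.01 (SE 0.09, limma adjusted p = 0.949) at 28 min and 0.05 (SE 0.09, adjusted p = 0.697) at 30 min. Without that step it was 0.29 (adjusted p = 0.0176) at 28 min, and with FPKM rescaled to a constant sum 0.28 (adjusted p = 0.0166). Whether a rise of this gene was seen at 28 min thus depended on the scaling.

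The ratio of Hsp90aa1 to Hsp90ab1 within a kidney does not depend on the scaling between kidneys. It was 0.339, 0.339 and 0.344 in ascending order at 0 min, 0.422, 0.462 and 0.490 at 28 min and 0.402, 0.488 and 0.495 at 30 min. On the log2 scale of FPKM + 1 the difference from 0 min was 0.42 at 28 min and 0.43 at 30 min, and the groups did not overlap (two-sided exact permutation p = 0.1 for both, the smallest that 3 against 3 kidneys allow). The ratio at 20, 24 and 26 min overlapped that of sham kidneys. Replicate 1 at 24 min (0.430) also lay within the 28 min range, and replicates 2 and 3 at 26 min (0.408 and 0.404) within the 30 min range. In all, 32 ratio differences were tested against 0 min (4 ratios at 8 times), and the smallest Benjamini-Hochberg adjusted p of the exact permutation tests was 0.178.

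The ratio of inducible to constitutive HSP70, Hspa1a plus Hspa1b over Hspa8, was 0.0139, 0.0156 and 0.0185 at 0 min, 0.0302, 0.0327 and 0.0394 at 28 min and 0.0900, 0.104 and 0.135 at 30 min. The 30 min kidneys were thus 6.54-fold above sham kidneys by the mean log2 ratio of FPKM + 1, and 28 min kidneys 2.08-fold. At all times except 26 min this ratio was above the sham range without overlap (exact permutation test, two-sided, p = 0.1 at each). The ratio of Hspa1a to Hspa1b was 0.596 to 0.753 at 0 min, 0.374 to 0.458 at 16 min and 0.715 to 1.05 at 30 min. Its difference at 16 min was -0.65 on the log2 scale with no overlap (exact permutation p = 0.1), and at 30 min it was 0.32 with overlapping groups (exact permutation p = 0.2). Because many reads fit both of these genes, this last ratio is uncertain.

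**Figure D3:**
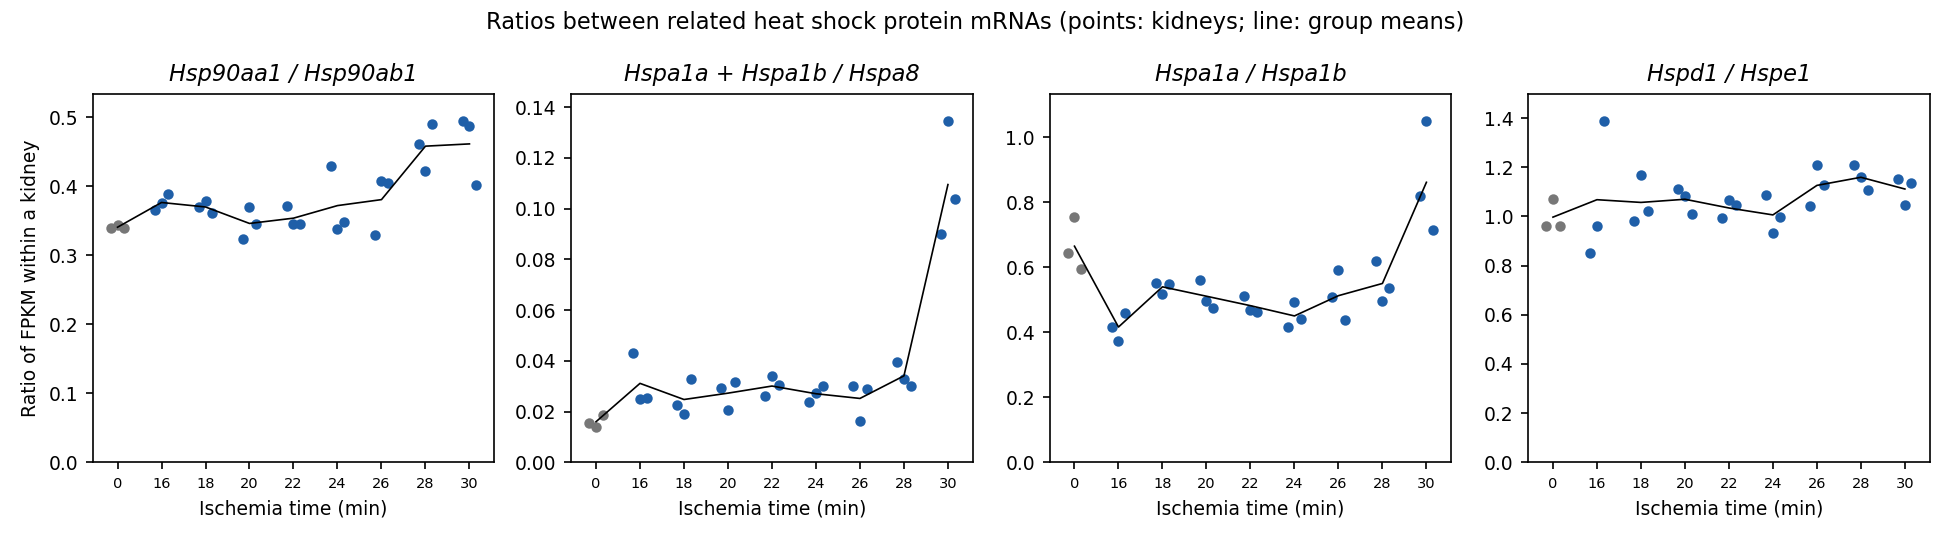
Ratios of FPKM between related heat shock protein mRNAs within each kidney (linear axes from 0) against ischemia time (min, equal steps), with grey points for 0 min, blue points for ischemia, and a line through group means. The Hspa1a plus Hspa1b over Hspa8 ratio lies between 0.0900 and 0.135 at 30 min and at or below 0.0429 in all other kidneys. The Hsp90aa1 over Hsp90ab1 ratio is at least 0.402 in every kidney at 28 and 30 min. It is also above 0.402 in replicate 1 at 24 min (0.430) and replicates 2 and 3 at 26 min (0.408 and 0.404).

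Of the mitochondrial pair, Hspd1 passed the adjusted p without the fold limit at 26 and 28 min and Hspe1 at no time. Hspd1 was at 224.86, 212.43 and 188.21 FPKM at 0 min, at 277.38, 259.22 and 278.92 FPKM at 28 min, and at 249.82, 242.28 and 155.55 FPKM at 30 min. The 28 min group lay above the sham range, and the 30 min group spread across it because of replicate 3. Hspe1 was at 234.22, 198.58 and 195.69 FPKM at 0 min, at 229.26, 223.60 and 251.46 FPKM at 28 min, and at 216.75, 231.43 and 137.01 FPKM at 30 min, where the same kidney was the lowest of all 27. That kidney also held the most Lcn2 of all (3921.19 FPKM). Its markers of other cells differed from those of replicates 1 and 2 at 30 min as well. It held 2033.56 FPKM of Umod (against 462.94 and 454.38) and 468.05 FPKM of Aqp2 (against 166.06 and 171.96). Acta2 was at 176.95 FPKM (against 68.84 and 48.69). Of the proximal tubule markers, Lrp2 was lower, at 14.08 FPKM (against 31.53 and 22.32), as were Cubn, Slc5a2, Slc22a6 and Slc22a8. Aqp1 was higher, at 85.07 FPKM (against 49.88 and 39.73), and Slc34a1 lay between, at 450.14 FPKM (against 460.13 and 410.57). Whether any of these bears on the low values was not tested.

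The log2 fold change of Hspd1 was 0.38 (SE 0.13, limma adjusted p = 0.0326) at 26 min and 0.43 (SE 0.13, adjusted p = 0.00897) at 28 min. At 26 min the limma adjusted p of Hspd1 was 0.0917 without quantile normalization, and it was between 0.0609 and 0.123 when replicate 2 or 3 of either group was left out. That of Hspe1 was 0.24 (SE 0.13, adjusted p = 0.123) at 28 min and 0.00 (SE 0.13, adjusted p = 1) at 30 min. Without replicate 3 of the 30 min group the log2 fold changes at 30 min were 0.36 for Hspd1 and 0.21 for Hspe1. The ratio of Hspd1 to Hspe1 lay between 0.853 and 1.39 in all 27 kidneys, and both extremes were at 16 min.

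The rest of the chaperone system was described with 81 further genes in 7 lists, of which 80 were tested. At 16 min 1 of the 80 was called higher and 0 lower, beside 1.28% and 0.979% of all tested genes, at 28 min 2 and 0, beside 4.27% and 4.21%, and at 30 min 5 and 1, beside 5.14% and 5.59%. Without the fold limit 22 were higher and 21 lower at 30 min, close to the shares of all tested genes (26.9% and 25.4%), and the median log2 fold change was 0.012.

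Serpinh1, the collagen chaperone HSP47, was the first of these to be called. It was at 46.70, 38.06 and 42.09 FPKM at 0 min, at 126.99, 136.15 and 63.56 FPKM at 16 min and at 135.52, 102.45 and 118.02 FPKM at 30 min, with replicate 3 again lowest at 16 min. All ischemic kidneys in these groups were above the sham range, with log2 fold changes of 1.21 (SE 0.19, limma adjusted p = 0.000288) at 16 min, 1.75 (SE 0.19, adjusted p = 3.38e-07) at 28 min and 1.49 (SE 0.19, adjusted p = 1.43e-06) at 30 min. At 16 min the log2 fold change was 1.54 without replicate 3 of that group and 1.20 without sham replicate 3, and the call was lost in a fit of only the 6 kidneys compared. Of 4 markers of fibroblasts and smooth muscle, 3 were called higher at 30 min, with a summed level of 20.3 to 26.0 FPKM at 0 min and 76.0 to 243.8 FPKM at 30 min, and their part in the Serpinh1 value was not tested.

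Bag2, a co-chaperone that releases nucleotide from HSP70 and inhibits the ubiquitin ligase CHIP, followed a step at 28 min. It was at 9.86, 10.62 and 11.63 FPKM at 0 min, at 17.28, 18.81 and 24.98 FPKM at 26 min, at 44.03, 36.79 and 36.44 FPKM at 28 min and at 39.66, 43.65 and 36.51 FPKM at 30 min. The late groups did not overlap the 26 min group, and the log2 fold change against 0 min was 1.64 (SE 0.15, limma adjusted p = 4.93e-08) at 28 min and 1.74 (SE 0.15, adjusted p = 9.93e-09) at 30 min. Fkbp5, an HSP90 co-chaperone that responds to glucocorticoids, was at 17.29, 19.85 and 18.27 FPKM at 0 min and at 31.87, 46.14 and 94.40 FPKM at 30 min, with a wide spread and a log2 fold change of 1.41 (SE 0.35, adjusted p = 0.00175).

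Small heat shock proteins beside Hspb1 were called only at 30 min among 16, 28 and 30 min. Cryab, alpha-B crystallin, was abundant already at 0 min (296.06, 199.86 and 318.39 FPKM) and was at 574.60, 690.10 and 480.79 FPKM at 30 min (1.07, SE 0.36, limma adjusted p = 0.0178). It was at 545.81, 487.37 and 182.67 FPKM at 16 min and at 528.64, 455.09 and 592.59 FPKM at 28 min. The 28 min kidneys thus also lay above the sham range and overlapped those of 30 min. Hspb8, which works with BAG3 in selective autophagy, was at 1.24, 1.90 and 3.55 FPKM at 0 min and at 6.30, 6.44 and 9.04 FPKM at 30 min (1.28, SE 0.22, adjusted p = 6.63e-05). For both genes the 30 min group was separate from the sham kidneys. The other 5 tested small heat shock proteins were not called at 30 min, and Hspb3 did not pass the filter.

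Of 14 mitochondrial chaperones and proteases, 1 was called lower at 30 min, where 5.59% of all genes were. Without the fold limit 6 of the 14 were lower and 0 higher, beside 25.4% and 26.9% of all genes. Clpx, the ATPase of the ClpXP protease, was at 53.67, 42.58 and 36.89 FPKM at 0 min, at 23.53, 24.34 and 25.67 FPKM at 28 min and at 20.96, 19.83 and 19.20 FPKM at 30 min, with a log2 fold change of -1.17 (SE 0.14, limma adjusted p = 7.98e-07) at 30 min. Clpx was at 24.14, 25.89 and 39.78 FPKM at 16 min and at 26.34, 29.73 and 27.05 FPKM at 18 min. In the same kidneys the 7 proximal tubule markers summed to 3232 to 3586 FPKM at 0 min. Slc34a1 was the largest part of this sum, with 2027.96 to 2377.44 FPKM at 0 min. The sum was 2435 to 3572 FPKM at 16 min and 3074 to 3129 FPKM at 18 min. At each of these times 1 of the 7 was called lower, beside 0.979% and 1.09% of all tested genes. Without the fold limit 3 of the 7 were lower and 0 higher at each. Of all 18188 tested genes 1748 and 2764 were lower by this rule, and 1715 and 2289 higher. The sum was 1172 to 1350 FPKM at 28 min and 754.5 to 832.1 FPKM at 30 min, where 6 of the 7 were called lower. The part of these cells in the Clpx value was not tested.

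The remaining lists held few called genes. The 2 other HSP90 genes, Hsp90b1 of the endoplasmic reticulum and Trap1 of mitochondria, were both lower without the fold limit at 30 min (-0.52, SE 0.14, limma adjusted p = 0.00331, and -0.78, SE 0.05, adjusted p = 1.48e-10). The shares of all tested genes for the counts without the fold limit that follow were 26.9% higher and 25.4% lower. Of 18 J-domain genes 5 were higher and 7 lower without the fold limit at 30 min, and 0 passed it in either direction by limma, with 13 at an unadjusted p under 0.05. Of 9 HSP70 and HSP110 genes 1 was higher and 1 lower without the fold limit, and of 22 co-chaperones 11 were higher and 2 lower.

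Of the genes of the heat shock factors, Hsf1 was not called and Hsf2 was lower without the fold limit. Hsf1 was at 19.48, 18.57 and 19.42 FPKM at 0 min, at 24.10, 23.81 and 25.76 FPKM at 28 min and at 23.65, 21.70 and 20.41 FPKM at 30 min, all above the sham range. The log2 fold change was 0.21 (SE 0.09, limma adjusted p = 0.0534) at 28 min and 0.10 (SE 0.09, adjusted p = 0.367) at 30 min. Hsf2, a related factor, was at 6.02, 6.00 and 7.76 FPKM at 0 min and at 6.11, 4.93 and 6.10 FPKM at 30 min (-0.29, SE 0.08, adjusted p = 0.00482), with overlapping groups.

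**Figure D4:**
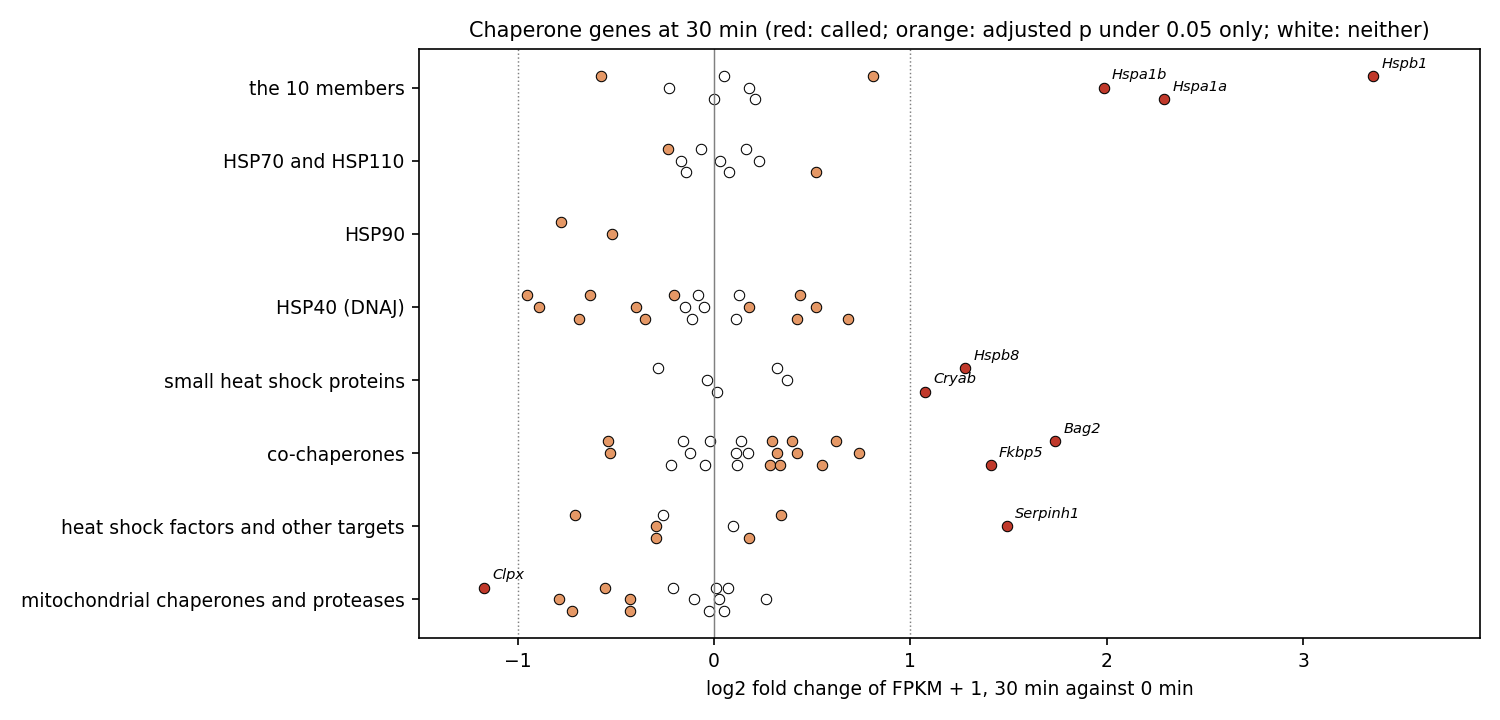
Log2 fold change of FPKM + 1 at 30 min against 0 min for the 10 genes (top row) and 80 other tested chaperone genes in 7 lists, each point a gene and points spread vertically only for legibility. Red points are called genes, orange points have an adjusted p under 0.05 only, and white points have neither: the called genes are Hspb1, Hspa1a and Hspa1b in the top row, Bag2, Serpinh1, Fkbp5, Hspb8 and Cryab on the right and Clpx on the left.

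Cell markers moved with ischemia time in the same kidneys. All 4 tubular injury markers were called higher at 16, 28 and 30 min, and their sum was 12.4 to 86.9 FPKM at 0 min, 68.9 to 1005 FPKM at 16 min, 2134 to 2256 FPKM at 28 min and 2508 to 4911 FPKM at 30 min. All 4 red blood cell markers (117.0 to 620.9 FPKM in sum at 0 min, 766.6 to 1413 FPKM at 30 min) and 2 of 4 neutrophil markers (2.84 to 8.24 and 16.5 to 24.5 FPKM) were called higher at 30 min, while Ly6g, a defining neutrophil marker, was at 0.20, 0.20 and 0.28 FPKM there. T and B cell markers summed to at most 0.78 FPKM at 0 min and 0.58 FPKM at 30 min. The part of these cells in the rise of Hspb1, Hspa1a and Hspa1b was not tested.

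Across the 27 kidneys, which share the 9 ischemia times, several pairs of the 10 genes had a like pattern. The Pearson correlation of log2(FPKM + 1) was 0.91 between Hspa1a and Hspa1b, which share reads, and 0.87 between Hsp90aa1 and Hsp90ab1. Hspb1 followed with 0.79 to Hsp90aa1, 0.75 to Hspa1b, 0.74 to Hspa1a and 0.71 to Hsp90ab1. It was 0.69 between Hspd1 and Hspe1, which lie head to head, and 0.68 between Hspa8 and its exchange factor Hsph1. Hspa8 had a correlation of -0.40 with both Hspb1 and Hspa1a. Dnajb1 had a correlation of 0.73 with Hspa1b and of 0.24 with Hspa8.

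Among 12345 tested genes with a mean of at least 1 FPKM, the genes most alike to Hspb1 were Cldn4 (0.97), a claudin of tight junctions, Sfn (0.97), the 14-3-3 sigma protein, Mt2 (0.97), a metallothionein, Tmem43 (0.96) and Tnfrsf23 (0.96). For Hspa8 they included Hspa5 (0.81) and Hyou1 (0.79), chaperones of the endoplasmic reticulum, and Chordc1 (0.77), an HSP90 co-chaperone, beside Zbtb40 and Mtmr4. For Hsph1 they were Chordc1 (0.82), Ahsa1 (0.77), an activator of the HSP90 ATPase, Hyou1 (0.77), Creld2 and Enah. Other chaperones or co-chaperones were thus among the 5 genes of Hspa8 and Hsph1.

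For Hspa1a the genes most alike were Tert (0.93), Pik3c3 (0.93), Zfp692, Eaf2 and LOC115488029, and for Hspa1b Hoxb9 (0.92), Mal2 (0.92), Nipal1, Slco4a1 and Krt7. Those of Hsp90aa1 were Tars (0.92), the threonyl-tRNA synthetase, Heatr1 (0.91) and Pno1 (0.91), which act in ribosome biogenesis, Txnl1 and Ptp4a1. Hsp90ab1 was most alike to Hsp90aa1, followed by Zfp36l1 (0.81), Trpv4, Supt5 and Cgn. For Dnajb1 they were Efemp1 (0.82), Upf1, Phf23, Git2 and Slco4a1, for Hspd1 Snx7 (0.83), Lrpprc, Tdp2, Dynlt1b and Wdr89, and for Hspe1 Thpo (0.81), 2210016F16Rik, Clba1, Mrpl44 and Npm3. All of these correlations are descriptions over kidneys that share their ischemia times.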

How the data were processed

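Per the deposited table, each of the 27 kidneys has 1 FPKM value for each gene symbol (the study's text calls the unit RPKM), made by the authors from DNBSEQ-G400 libraries, on a linear scale and to 2 decimals. The submitters' processing notes name Bowtie2, RSEM and DESeq2 and the build GRCm38.p6, without versions. Read depth was not given. Relative depth, estimated from the steps between low values of 17 to 30 genes per kidney, was 0.95 to 1.06. Only values close to the lowest value of each gene entered this estimate, which holds it near 1. It therefore cannot show whether read depth was even.

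FPKM + 1 was log2 transformed and quantile normalized over the 27 kidneys, and limma 3.58.1 (R 4.3.3) fitted 1 mean per ischemia time for 18188 genes above 0 FPKM in at least 3 kidneys. Quantile normalization makes the distribution of every kidney equal, so abundant genes such as Hsp90ab1 can lose a shift. Ratios were tested with exact permutation tests (scipy 1.17.1, Python 3.11.15). The limma contrasts for 28 and 30 min against 0 min and for the slope were checked on simulated data. These values were drawn on the normalized scale, so normalization, the filter and the permutation tests were not checked. Replicates are separate kidneys per the labels.

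The 10 genes and the other lists were chosen with earlier results of these data known. Named genes are the 10 members, Hsf1 and Hsf2, the 5 chaperone genes with the largest increases and decreases among the DEGs at 16, 28 and 30 min, and for each member the 5 genes with the highest correlation. Hsp90b1 and Trap1, the whole of their list, and single markers were named after their values were seen. Alternatives were another pseudocount, scaling, filter, set of groups, moderation, a replicate block, each kidney left out, and Hspa1a and Hspa1b summed.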

Additional observations from a re-analysis of the deposited data

How the results depend on the processing

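The number of members called higher at 30 min stayed 3 under the alternatives run, also with each kidney left out, except that it was 2 where Hspa1a and Hspa1b were summed into 1 entry. Other counts moved. A replicate block gave 0 members higher at 18 min in place of 1, as did no filter, and changed no other count of called members or chaperones. The replicate numbers are shared by all groups, but residuals of same-numbered kidneys correlated by only -0.0237 to 0.0328 on average. Single pairs ran from -0.416 to 0.48, and pairs of different number and time from -0.524 to 0.519. The averages show no shared pairing, but they cannot exclude a link between some of the kidneys. A fit of only the groups compared gave 1 member at 20 min, 0 from 28 to 30 min and 0 other chaperones at 16 min. Without quantile normalization, or with a constant FPKM sum, 2 members were higher at 28 min, as Hspa1b passed beside Hspb1 (1.03 and 1.05). A pseudocount of 0.1 FPKM gave 1 other chaperone lower at 28 min and 3 at 30 min. With Hspa1a and Hspa1b summed, 1 member was called from 28 to 30 min.

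When 1 kidney was left out, the members called higher ranged from 0 to 2 at 16, 22 and 24 min, were 0 at 18 min, and ranged from 0 to 1 at 26 min, 1 to 2 at 28 min and 1 to 2 from 28 to 30 min. The counts of 2 at 22, 24 and 28 min came without sham replicate 3. The other chaperones ranged from 2 to 4 higher and 0 to 1 lower at 28 min, and from 4 to 5 higher and 1 to 2 lower at 30 min. Log2 fold changes that crossed 0 ranged from -0.127 to 0.430 (Hspa1a) and -0.147 to 0.118 (Hsph1) at 16 min, from -0.0886 to 0.296 (Hspa1a), -0.285 to 0.0555 (Hspa8), -0.0078 to 0.189 (Hsp90ab1) and -0.114 to 0.150 (Dnajb1) at 26 min, from -0.318 to 0.0208 (Hspa8) and -0.0562 to 0.0265 (Hsp90ab1) at 28 min, and from -0.119 to 0.208 (Hspe1) at 30 min. From 28 to 30 min they ranged from -0.0586 to 0.0350 (Dnajb1) and -0.137 to 0.195 (Hsph1). The log2 ratio of Hsp90aa1 to Hsp90ab1 at 20 min ranged from -0.0275 to 0.0678, and that of Hspd1 to Hspe1 from -0.136 to 0.214 at 16 min and -0.0461 to 0.0655 at 24 min.

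Other changes of sign were in members that were not called. Without quantile normalization and with a constant sum, in that order, these were Hsph1 at 16 min (0.0688 and 0.0774), Hsp90ab1 at 28 min (0.290 and 0.276), Hspe1 at 30 min (-0.134 for both, and -0.00306 in a fit of only the groups compared) and Hsph1 from 28 to 30 min (-0.0430 and -0.0287). Without quantile normalization Hsp90ab1 from 28 to 30 min was at -0.00223. The cause was not tested. The split of calls over all genes at 30 min was 934 higher and 1016 lower, 1086 and 886 without quantile normalization, and 1333 and 1044 with a constant sum. With 3 kidneys per group and no read depth, small changes of low genes are not resolved.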
